A study of Homo sapiens with 8 samples.

Results

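The MAGE family genes were read here in HEK293T, a human embryonic kidney cell line, as the ratio of nascent RNA between wild-type (WT) cells and cells that lack PCIF1 (Pcif1-KO). PCIF1 is the methyltransferase that turns a first transcribed adenosine next to the mRNA cap into m6Am. The members were all gene symbols that begin with MAGE and a further letter and that had a value, which gave 8 of the 8801 genes listed. The family was chosen by its measured ratios, because MAGEA1 and MAGEH1 had been seen among the lowest of all genes, so the ratios below are a description and carry no test.

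Of 42 such symbols in the gene name table, 35 protein coding in RefSeq, 34 had no ratio in the tables used here. The 4 libraries behind the ratios were 1 each from WT cells with a scrambled siRNA (siScram), Pcif1-KO cells with siScram, WT cells with an siRNA against PCF11 (siPCF11) and Pcif1-KO cells with siPCF11. PCF11 is a factor of mRNA 3′ end cleavage and of transcription termination. Each culture received 5 pmol siRNA and was harvested after 48 h, the series describes s4U labelling of new RNA, and libraries read mRNA from the 3′ end of nuclear RNA. Another 4 libraries, in which Pcif1-KO cells expressed EGFP, PCIF1-WT or PCIF1-CD, were left aside. How many clones the Pcif1-KO line stands for is not given in the sources used here.

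MAGE proteins share a conserved MAGE homology domain, through which several of them bind RING-type ubiquitin ligases and direct them to particular substrates. Type I members, which include the MAGE-A genes, lie on the X chromosome, are normally silent outside the germline, where DNA methylation helps to keep them off, and come on in many tumours and tumour-derived lines. Type II members, among them the MAGE-D, MAGE-E, MAGE-F and MAGE-H genes, are found in many tissues. Of the 8 members listed here, 7 lie on chromosome X and MAGEF1 lies on chromosome 3.

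All 8 members were in the short class of the authors' deposited tables, which sort genes by length and, within each length, into m6Am and non-m6Am genes. MAGEA1, MAGEA6, MAGED1, MAGED2, MAGED4B and MAGEF1 were m6Am genes, and MAGEE1 and MAGEH1 were non-m6Am genes. Of the 7893 genes with a siScram ratio, 3377 were short, and 2090 of these short genes were m6Am genes. The m6Am class was thus the larger one among short genes in general. Because m6Am forms only on a first transcribed adenosine, the sequences around the RefSeq start sites (GRCh38.p14) are shown for the 6 members that had an entry, which are MAGEA6, MAGED1, MAGED2, MAGED4B, MAGEE1 and MAGEF1. Each run covers 40 bases before the start and the first 10 transcribed bases, 5′ to 3′ on the gene's strand, and the capital marks the first transcribed base.
MAGEA6, chrX:152769680-152769729, minus strand: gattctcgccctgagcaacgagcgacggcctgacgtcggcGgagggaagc
MAGED1 upstream start, chrX:51803036-51803085, plus strand: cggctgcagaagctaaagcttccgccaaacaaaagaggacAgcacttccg
MAGED1 downstream start, chrX:51893583-51893632, plus strand: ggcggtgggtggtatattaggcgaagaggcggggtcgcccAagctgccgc
MAGED2 upstream start, chrX:54807705-54807754, plus strand: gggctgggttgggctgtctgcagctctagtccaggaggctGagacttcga
MAGED2 downstream start, chrX:54808306-54808355, plus strand: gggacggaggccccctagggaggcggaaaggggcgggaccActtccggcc
MAGED4B upstream start, chrX:52069263-52069312, minus strand: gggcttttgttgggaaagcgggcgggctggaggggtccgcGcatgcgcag
MAGED4B downstream start, chrX:52069174-52069223, minus strand: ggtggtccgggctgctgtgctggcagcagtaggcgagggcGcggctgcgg
MAGEE1, chrX:76427670-76427719, plus strand: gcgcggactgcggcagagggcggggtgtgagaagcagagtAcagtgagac
MAGEF1, chr3:184712055-184712104, minus strand: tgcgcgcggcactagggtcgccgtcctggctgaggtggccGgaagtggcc

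The first base and the m6Am class did not go together member by member. MAGED1 had A at both of its RefSeq starts and MAGED2 at the downstream one, so that 2 of the 5 m6Am members shown had an A first at any start. MAGEA6, MAGED4B and MAGEF1 are m6Am genes with G at every RefSeq start shown, and the non-m6Am member MAGEE1 began with A. Over all listed genes with an entry, an A stood first at any start in 57.8% of 3637 m6Am genes and in 49.5% of 3658 non-m6Am genes. Which start these cells used was not measured, so a RefSeq start says nothing of the base at the cap here.

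The 250 bases before the starts held between 6 and 19 CG pairs, fewer at each of the 9 MAGE starts than the median of 21 over the 10665 starts of listed genes, while 6 of the 9 held more than the median of 11 over all 35116 entries. The core bound by ETS factors (CCGGAA, either strand), which MAGE-A promoters are known to use, was found before the MAGEA6 and MAGEF1 starts, 2 of 9, and in 14.5% of all 35116 entries. A GC box (GGGCGG, either strand) was found before 7 of the 9 starts and in 42.6% of all entries. Motif shares over the starts of listed genes, which hold more CG pairs, were not worked out, so 42.6% may be too low a base. The 9 starts belong to 6 genes, and the windows before the 2 MAGED4B starts overlap, so the same box can count again. A match gives the letters in that window only.

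Each value is the log2 of WT over Pcif1-KO, so that a negative value means more nascent RNA in Pcif1-KO cells. The siScram columns held 7893 genes, the siPCF11 columns 8499, and 7591 genes were in both. No counts or levels were given, so the depth behind each ratio is unknown and the order of the members by level cannot be had. In such bulk libraries, more cells that express a gene and more RNA per cell cannot be told apart. No value of PCIF1 was at hand to check the knockout label, and PCF11 cannot check its knockdown because both libraries of a ratio had the same siRNA.

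With siScram, MAGEA1 and MAGEH1 stood far below the other members, MAGEE1 stood above 0, and the remaining 5 lay between -0.29 and -0.049 in the authors' deposited tables. Of the 8 members, 7 were below 0, where 51.1% of all 7893 genes and 168 of 266 chromosome X genes (63.2%) also lay. A log2 ratio below -1, which is more than 2 times as much in Pcif1-KO cells, was found for 2 of the 8, against 0.519% of all genes and 4 of 266 chromosome X genes. Since these ratios led to the choice of the family, the shares are given as a description. The median over the members was -0.17 (middle 50% -0.65 to -0.080), against -0.12 for chromosome X genes and -0.0096 for all genes, and was -0.070 once each gene was set against the other genes of its chromosome.

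With siPCF11, from separate libraries of the same lines, 7 members had a ratio and MAGED4B had none. MAGEA1 and MAGEH1 were again the lowest, and 4 of the 7 were below 0, beside 51.1% of all 8499 genes and 191 of 290 chromosome X genes (65.9%). A ratio below -1 was found for 2 of 7, against 0.659% of all genes and 8 of 290 chromosome X genes. The median over the members was -0.28 (middle 50% -1.13 to 0.13), against -0.12 for chromosome X genes and -0.010 for all genes, and was -0.13 without MAGEA6, which has a near-identical copy.

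**Figure D1:**
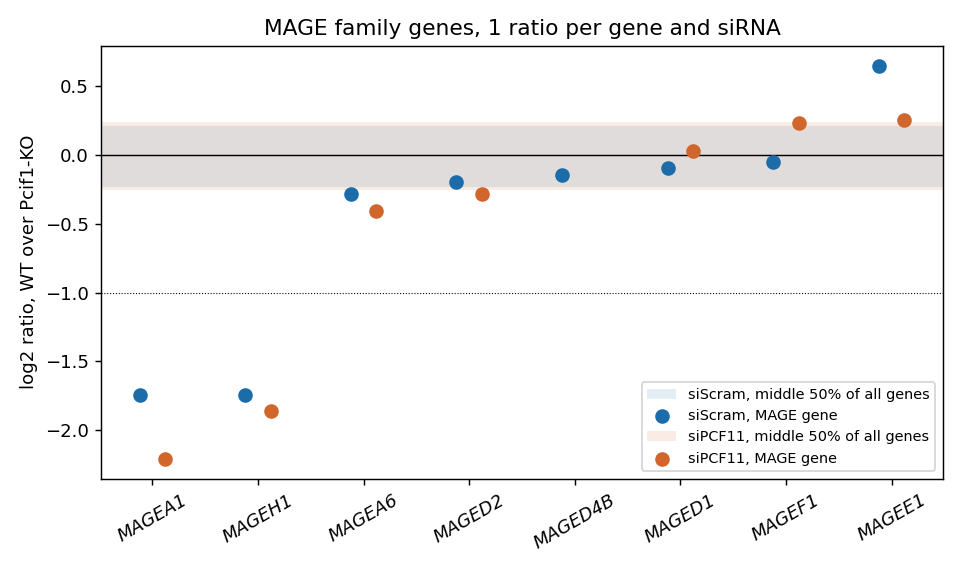
Log2 ratio of WT over Pcif1-KO (vertical axis) for each MAGE gene (horizontal axis, ordered by the siScram ratio), with 1 point per siRNA and no replicate. Shaded bands give the middle 50% of all listed genes and the dotted line a ratio of -1; MAGEA1 and MAGEH1 lie between -1.74 and -2.21, and MAGED4B has a siScram point only.

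MAGEA1 (ENSG00000198681.6, chromosome X, 153179284 to 153183880, RefSeq span 4.60 kb) encodes a cancer-testis antigen and was the first human tumour antigen found to be recognised by cytotoxic T cells. Its ratio in the authors' deposited tables was -1.74 with siScram and -2.21 with siPCF11. This is 3.35-fold and 4.62-fold more nascent RNA in Pcif1-KO than in WT cells. It was the third lowest of all genes with siScram and the fourth lowest with siPCF11, and second lowest on chromosome X both times. The change from siScram to siPCF11 was -0.46, where the median size of that change over 7591 genes was 0.26.

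MAGEH1 (ENSG00000187601.4, chromosome X, 55452127 to 55453566, span 1.44 kb) is a type II member and has the shortest span of the 8. In the authors' deposited tables it was at -1.74 with siScram and at -1.86 with siPCF11, or 3.35-fold and 3.64-fold more in Pcif1-KO cells. The change between the siRNAs was -0.12. MAGEH1 thus lay beside MAGEA1 with siScram and 0.35 nearer to 0 with siPCF11. It was classed as non-m6Am and MAGEA1 as m6Am, and the medians of these classes were close among short genes. With siScram the median was -0.026 for short m6Am and -0.030 for short non-m6Am genes, and with siPCF11 it was 0.039 and -0.013. The SD of a single ratio, taken from the siScram to siPCF11 differences over all genes, was 0.28, and a difference of 0.35 between these genes is of that order. This SD pools all genes whatever their depth and leaves out any difference between the lines that both siRNAs share. It is therefore not the precision of the MAGEA1 or MAGEH1 ratio.

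MAGEA6 (ENSG00000197172.10, chromosome X, 152766136 to 152769689, span 3.55 kb) is the only other type I member listed and directs the ligase TRIM28 to its substrates. Its ratios were -0.29 for siScram and -0.41 for siPCF11, per the authors' deposited tables. It thus lay below 0 with both, much nearer to 0 than MAGEA1, which lies 413 kb away. MAGEA6 is nearly identical to MAGEA3, so reads could have been split or shared between them, and its value is uncertain for that reason.

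The MAGE-D genes lie on chromosome X as well and were near 0. MAGED1 (ENSG00000179222.17, 51803076 to 51902354), which binds the neurotrophin receptor p75NTR, had ratios of -0.091 and 0.031 for siScram and siPCF11, per the authors' deposited tables. Its RefSeq span is 99.3 kb although it was in the short class, and from the downstream start shown above to the end of the gene it is 8.73 kb. MAGED2 (ENSG00000102316.16, 54807745 to 54816015, span 8.27 kb), whose loss causes a transient antenatal form of Bartter syndrome, was at -0.20 and -0.28 in the authors' deposited tables. MAGED4B (ENSG00000187243.16, 52061827 to 52069272, span 7.45 kb) was at -0.14 with siScram in the authors' deposited tables, and has a near-identical copy in MAGED4, which makes this value uncertain too. TRO, a family member also known as MAGED3 that the symbol rule leaves out, was at -0.23 and 0.35 in the authors' deposited tables.

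MAGEE1 (ENSG00000198934.4, chromosome X, 76427710 to 76431342, span 3.63 kb), which binds the dystrobrevins of the dystrophin complex, went the other way from MAGEA1 and MAGEH1. In the authors' deposited tables it was at 0.65 with siScram and 0.26 with siPCF11, or 1.57-fold and 1.19-fold more in WT cells. It was the one member above 0 with both siRNAs. Counted from the lowest, it ranked 7694 of 7893 genes and 263 of 266 on chromosome X with siScram. With siPCF11 it ranked 6474 of 8499 and 244 of 290. Its change between the siRNAs was -0.40.

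MAGEF1 (ENSG00000177383.4, chromosome 3, 184710364 to 184712064, span 1.70 kb) is the member outside chromosome X and pairs with the ligase NSMCE1 to ubiquitinate MMS19, a factor of cytosolic iron-sulfur protein assembly. Its ratios in the authors' deposited tables were -0.049 with siScram and 0.23 with siPCF11. They lay on either side of 0, with a change of 0.28, close to the median size of the change over all genes. Over the 7 members with both ratios the change was below 0 for 5 and above 0 for 2, with a median of -0.12. None of the 7 changed by 1 or more. The share of all genes that did so was not worked out, so this count does not set the members apart. The median size of the change over all genes was 0.26, so a change of 1 would be large for any gene. Over all 7591 genes with both ratios the change was below 0 for 49.2% (median 0.0072), and on chromosome X for 139 of 256 (median -0.045).

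**Figure D2:**
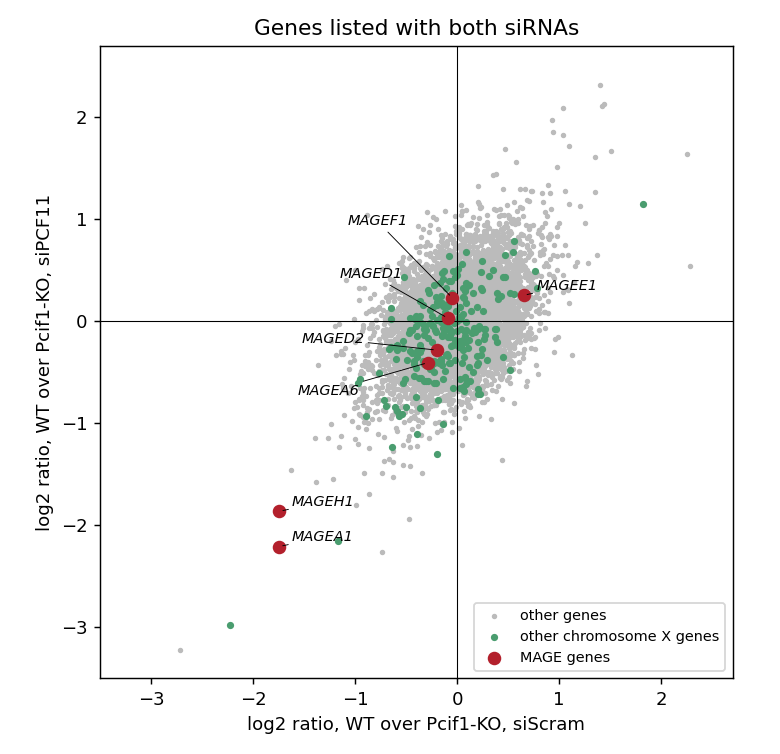
Log2 ratio of WT over Pcif1-KO with siScram (horizontal) against that with siPCF11 (vertical) for the 7591 genes listed with both, 1 point per gene. MAGEA1 and MAGEH1 lie in the lower left corner, below -1 on both axes as are 14 genes in all. The other 5 MAGE genes lie nearer the middle of the cloud, with MAGEE1 towards its right side.

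Taking both siRNAs, 14 genes were below -1 with each, 0.184% of the 7591, and MAGEA1 and MAGEH1 were 2 of them. Of the 14, 4 were on chromosome X, which held 256 of the 7591 genes, and the others there were CITED1, a transcriptional co-regulator, and BEX1. The genes with the pattern most like a member's were found by the distance between the pairs of ratios, over these 2 values only. MAGEA1 and MAGEH1 drew attention by these same low ratios, and only 14 genes were below -1 with each siRNA. That they lie near each other follows in part from this. The gene nearest to MAGEA1 was MAGEH1, at a distance of 0.35, and then BEX1 (0.57), the vasodilator peptide gene ADM (0.73), the transcription factor gene GATA3 (0.76) and the protocadherin gene PCDH7 (0.85). Next to MAGEH1 after MAGEA1 came GATA3 (0.42), ADM (0.46), PCDH7 (0.62) and BEX1 (0.64). In the authors' deposited tables BEX1 was at -1.17 and -2.15, and ADM was at -1.38 and -1.57. MAGEF1 lay in the crowded middle, where TLE3, RPL41, JMJD6 and DDX54 were within 0.013 of it.

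No gene measured around MAGEA1 or MAGEH1 was as low as they were, but PNMA3, beside MAGEA1, came close to -1 with siScram. Within 5 Mb on either side of MAGEA1, 40 other genes had a median of -0.15 with siScram and 39 had one of 0.043 with siPCF11, and none was below -1. Its nearest measured neighbour at the lower coordinates, PNMA3, 123 kb away, was the lowest of them at -0.98 with siScram in the authors' deposited tables, and had no siPCF11 ratio. ZNF275, 155 kb to the other side, was at -0.12 and 0.096 in the authors' deposited tables. Relative to the medians of these regions MAGEA1 was at -1.60 with siScram and -2.25 with siPCF11.

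Around MAGEH1, 23 other genes had a median of -0.091 with siScram and 20 had one of -0.061 with siPCF11, again with none below -1. APEX2, 452 kb below it, was at 0.044 and -0.41, and UBQLN2, 1112 kb above it, was at 0.21 and -0.049 in the authors' deposited tables. MAGEH1 was at -1.65 and -1.80 relative to the medians of its region. It shares this stretch with MAGED2, MAGED1, MAGED4B and TRO, none of which was below -0.5.

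**Figure D3:**
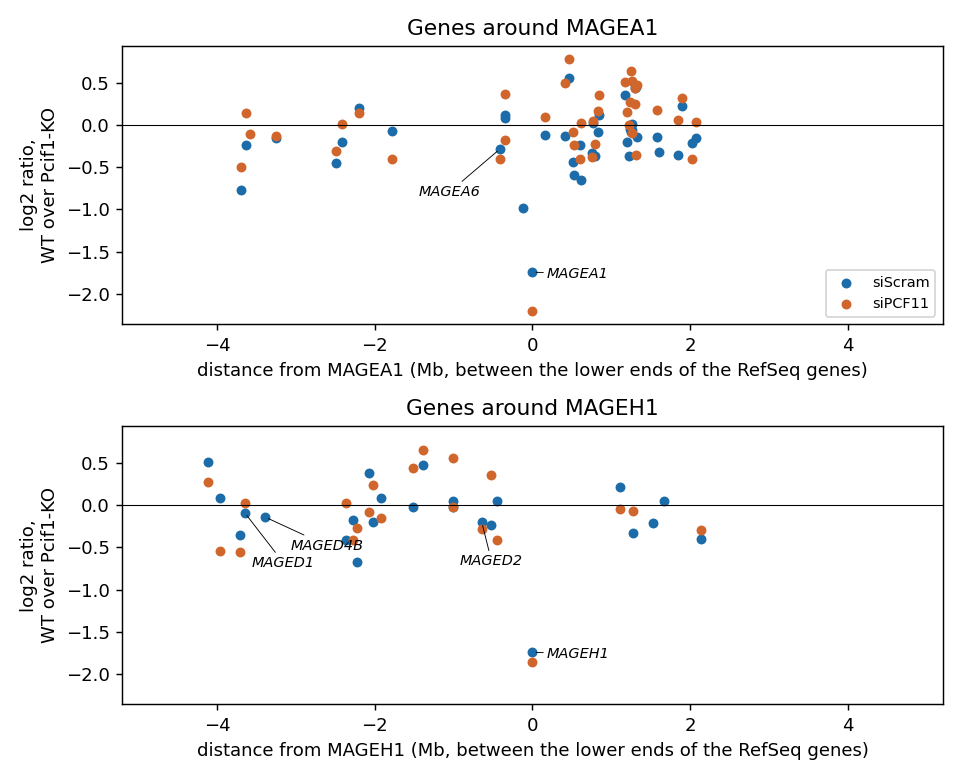
Log2 ratio of WT over Pcif1-KO (vertical) of each listed gene within 5 Mb of MAGEA1 (upper panel) and MAGEH1 (lower panel), by distance in Mb from that gene, 1 point per gene and siRNA. The named gene at 0 is the only one below -1 in each panel; the next lowest are PNMA3 at -0.98 beside MAGEA1 and IQSEC2 at -0.67 beside MAGEH1.

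The other X-linked members were nearer to their surroundings. Against the median of the other genes within 5 Mb, MAGEA6 was at -0.14 with siScram and -0.45 with siPCF11, MAGED2 at -0.11 and -0.22, and MAGED1 at 0.066 and 0.073. MAGED4B was at 0.032 with siScram on that scale, and MAGEF1, on chromosome 3, at -0.098 and 0.19. MAGEA6 lay between VMA21 (-0.076 and -0.41) and CETN2 (0.12 and -0.18) in the authors' deposited tables. MAGED1 followed GSPT2 (-0.36 and -0.55), and MAGED4B was followed by TSPYL2 (-0.41 and 0.024) in the authors' deposited tables. MAGED2 lay between FGD1, a long gene (0.049 and 0.56), and TRO in the authors' deposited tables. MAGEE1 stood between PBDC1 (-0.51 and -0.57) and ATRX (0.31 and 0.45), and against the median of its region it was at 0.79 with siScram and 0.43 with siPCF11; the neighbours' values are those of the authors' deposited tables.

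Genes whose products work with MAGE proteins had ratios on both sides of 0. Of 17 genes for ligases, a deubiquitinase and substrates reported with MAGE proteins, 13 had a ratio, of which 7 were below 0 with siScram (median -0.017) and 6 with siPCF11 (median 0.046). MMS19 was lowest at -0.62 with siScram but at 0.38 with siPCF11, RBX1, a RING subunit of cullin ligases, was nearest the median at -0.017 and 0.046, and the cullin CUL4A was highest at 0.61 and 1.301 in the authors' deposited tables. Of genes named here for their roles after their values were seen, TRIM28 was at 0.33 and 0.62, NSMCE1, the partner of MAGEF1, at -0.12 and 0.075, and PJA1, an X-linked ligase that binds MAGED1, at -0.23 and -0.39, per the authors' deposited tables.

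The SMC5/6 complex, a DNA repair complex that holds the MAGE protein NSMCE3, had a siScram ratio for 5 of its 9 genes, 3 of them below 0 (median -0.043), and a siPCF11 ratio for 6, 3 of them below 0 (median -0.067). SMC5 was highest at 0.40 and 0.87, NSMCE4A was in the middle at -0.043 and -0.21, and SLF2 was lowest at -0.12 with siScram and at 0.18 with siPCF11 in the authors' deposited tables. Iron-sulfur assembly genes, which include MMS19, had 4 of 7 below 0 with siScram (median -0.037) and 2 of 7 with siPCF11 (median 0.24). Here CIAO1 was at -0.037 and 0.24 and NUBP1 at 0.51 and -0.013 in the authors' deposited tables. Genes of the WASH complex and the retromer, an endosomal machinery that MAGEL2 acts on, had 2 of 6 below 0 with siScram (median 0.18) and 7 of 9 with siPCF11 (median -0.051). WASHC2A, which has a close copy in WASHC2C, was lowest at -0.38 and -1.03, CAPZA1 was at 0.19 and -0.66, and VPS26A was highest at 0.56 and -0.26 in the authors' deposited tables.

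A list of regulators of DNA methylation and of germline genes held enzymes that write methylation and repressors, and also the TET demethylases and the ETS and SP1 transcription factors, so it is not a list of silencers. It was above 0 for 13 of 18 with siScram (median 0.082) and for 8 of 20 with siPCF11 (median -0.079). TET1 was lowest with siScram, at -0.32, and was at -0.14 with siPCF11, the histone methyltransferase EHMT1 was at 0.091 and -0.056, and the transcription factor ETS2 was highest at 0.70 but at -0.10 with siPCF11 in the authors' deposited tables. Of 41 further symbols of cancer-testis antigens looked for, 6 had a ratio and all 6 are long genes with known uses outside the germline. Among them ATAD2 was at 0.36 and 0.24, ODF2 at 0.22 and 0.34, TTK at -0.0016 and 0.018 and SPAG9 at -0.52 and -0.17, while CEP55 (-0.30) and KNL1 (-0.44) had a siPCF11 ratio only, in the authors' deposited tables. The remaining symbols, PRAME and those of GAGE, PAGE, XAGE and SSX genes among them, had no ratio in the tables used here.

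**Figure D4:**
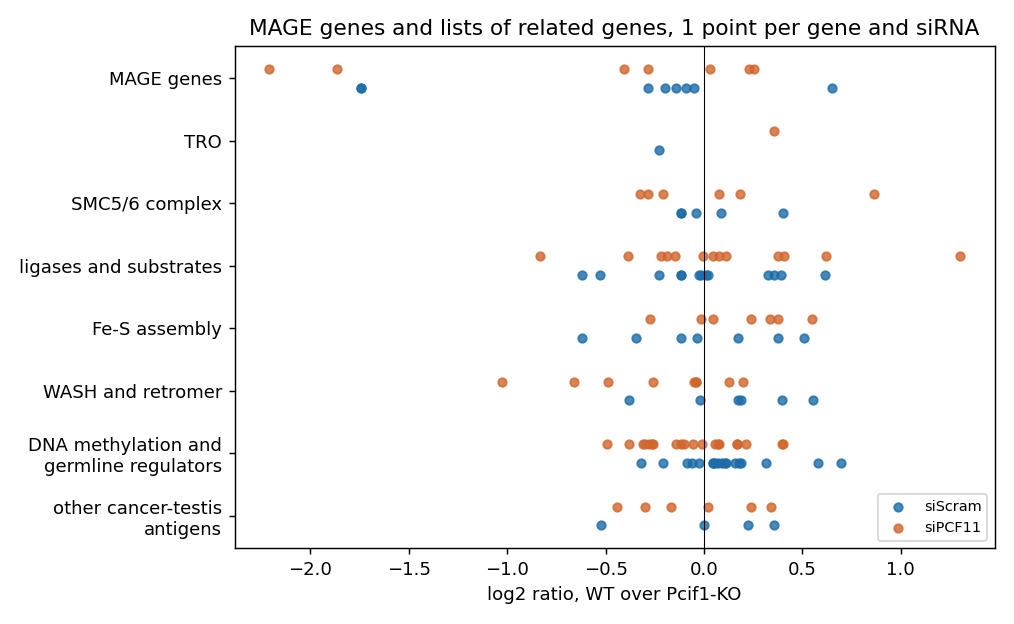
Log2 ratio of WT over Pcif1-KO (horizontal) of the MAGE genes and of lists of related genes (rows), 1 point per gene and siRNA. MAGEA1 and MAGEH1 are the 2 points left of -1.5 for each siRNA, and the listed genes of the other rows lie between -1.03 and 1.301.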

How the data were processed

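Per the submitters' processing notes, the build was hg38 and the tools were DESeq2 1.30.1, HTSeq 2.0.1, STAR 2.7.10a, cutadapt 3.7 and bcl2fastq 2.20, without their roles. The authors deposited log2 ratios of WT over Pcif1-KO in 2 tables with 8 value columns; how they were scaled, shrunk or filtered, and how classes were set, is not given in the sources used here. Reads from 3′ ends also depend on the cleavage site. The tables hold no counts, errors or p-values, so depth and precision are unknown.

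Groups came from sample titles, 1 library each, so no test was made. Symbols were matched for 8792 of 8801 genes and RefSeq places (GRCh38.p14) for 99.1%. Medians, counts and centring used Python 3.11.15 and pandas 2.3.3, with figures by matplotlib 3.10.9; centring was tested on simulated data. An alternative was compared with the SD of a ratio from the siScram to siPCF11 differences, 0.28, which includes any true effect of the siRNA. That SD pools all genes and leaves out any difference between the lines that both siRNAs share.

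Members, 7 gene lists and 4 marker lists were chosen with earlier results of these data known. Named were all members, the 5 genes nearest to MAGEA1, MAGEH1 and MAGEF1 (1 is not reported here), the nearest measured gene on either side of X-linked members, and per list the lowest, middle and highest gene with siScram, or all if fewer than 5; genes below -1 with both siRNAs and the lowest gene of a region were added after their values were seen.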

Additional observations from a re-analysis of the deposited data

Results flagged for a closer look

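These genes had ratios of opposite sign with the 2 siRNAs, from 1 library pair each, and the difference was not tested. In the authors' deposited tables MAGED1 was at -0.091 with siScram and 0.031 with siPCF11, and MAGEF1 was at -0.049 and 0.23. Those of related genes that went from below 0 to above 0 in the authors' deposited tables were MMS19 (-0.62 and 0.38), TRO (-0.23 and 0.35), SLF2 (-0.12 and 0.18), CIAO1 (-0.037 and 0.24), RBX1 (-0.017 and 0.046) and TTK (-0.0016 and 0.018). Those that went from above 0 to below 0 were ETS2 (0.70 and -0.10), VPS26A (0.56 and -0.26), NUBP1 (0.51 and -0.013), INA (0.31 and -0.12), CAPZA1 (0.19 and -0.66), EHMT1 (0.091 and -0.056) and NEFL (0.077 and -0.45) in the authors' deposited tables. The largest change among these 15 genes was 0.996, for MMS19.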

How the results depend on the processing

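MAGEA1 and MAGEH1 were below -1 with both siRNAs under each of 4 centrings, on all genes, on the other genes of the chromosome, on those within 5 Mb and on the length and m6Am class. The medians subtracted from them were small, the largest in size being -0.15 (within 5 Mb of MAGEA1, siScram). No centring could thus have brought them above -1. MAGEA1 ranged from -1.74 to -1.60 with siScram and from -2.25 to -2.10 with siPCF11, and MAGEH1 from -1.74 to -1.63 and from -1.86 to -1.75. Members near 0 crossed it. MAGED1 ranged from -0.091 to 0.066 with siScram and from -0.0082 to 0.15 with siPCF11, and MAGED4B from -0.14 to 0.032, so that members below 0 with siScram numbered 5 after centring within 5 Mb and 6 on the chromosome, against 7 as deposited, and with siPCF11 5 on the class, against 4. MAGEA6 ranged from -0.29 to -0.14, MAGED2 from -0.20 to -0.084 and MAGEF1 from -0.098 to -0.023 with siScram, and the change between siRNAs from -0.31 to -0.12 for MAGEA6, from -0.15 to -0.083 for MAGED2 and from 0.0064 to 0.12 for MAGED1. The median over members with siPCF11 was -0.13 without members that have a near-identical copy, against -0.28. With 0.5 in place of 1, counted in either direction, 3 members passed with siScram and 2 with siPCF11. With siScram these were MAGEA1 and MAGEH1 on the negative side and MAGEE1, at 0.65, on the positive side. The share of all genes past 0.5 was not worked out, so these counts do not set the members apart. No ratio, change or median of the members moved by more than the SD of 0.28. No replicate could be left out with 1 library per group, and no paired analysis was possible because the groups share no replicates.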

Other observations

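Of the marker lists for other cell types, none of 10 germ cell and none of 3 blood markers had a ratio, and 3 of 6 neural markers did. Among the neural markers the medium neurofilament gene NEFM was at -2.71 with siScram and -3.23 with siPCF11, NEFL at 0.077 and -0.45 and INA at 0.31 and -0.12, per the authors' deposited tables. Of 4 kidney markers PAX2 alone had a ratio, at -0.36 with siPCF11 in the authors' deposited tables. NEFM was thus among the 14 genes below -1 with both siRNAs, as were MAGEA1 and MAGEH1, while NEFL and INA were not. Whether these low ratios are linked was not tested.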
